A study of Mus musculus with 2 samples.

Results

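The cells described here are macrophages of the mouse colon that carry RNA of Cd163, Folr2 and Lyve1. They are the cells of the deposited cluster 1, the macrophage cluster of the data set, in which the unique molecular identifiers (UMIs, 1 per captured RNA molecule) of Cd163, Folr2 and Lyve1 sum to 2 or more. The members were thus chosen by measured UMIs of these genes. The rule takes 248 of the 1770 cells of cluster 1 and of the 13492 cells with a deposited cluster, 78 in the wild type library and 170 in the library labelled transgenic. They are called members below and are set against the 1350 cluster 1 cells in which the sum is 0, 519 in the wild type library and 831 in the library labelled transgenic. The 172 cells with a sum of 1 are kept apart.

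Lamina propria of the colon was taken from C57BL/6 mice, all aged 8 weeks, for both libraries. Colitis had been induced with 2.0% dextran sulfate sodium (DSS) in the drinking water for 7 days, and the mice then drank plain water for 7 days and were killed on day 14. Live CD45+ cells, that is all leukocytes, were sorted and run on the 10x Genomics 5' chemistry. One library was wild type and the other was from mice that overexpress E4BP4, the transcription factor encoded by Nfil3, in macrophages; the labels do not name the promoter that drives the transgene or the number of mice behind each library. There was 1 library per genotype, so no difference between the libraries could be tested. All intervals are 95% intervals that cover counting error only, and a gene is counted as higher or lower when its ratio is at least 1.5 or at most 1/1.5.

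Folr2 encodes a folate receptor, Lyve1 a hyaluronan receptor and Cd163 the scavenger receptor for haemoglobin bound to haptoglobin. Macrophages with these receptors are found in many tissues as long-lived resident cells that lie along blood and lymph vessels, and in the gut they are known from the submucosa and the muscle layer. They take up debris and iron, whereas the macrophages of the lamina propria near the epithelium are renewed from blood monocytes and present antigen on class II molecules.

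Nfil3 (ENSMUSG00000056749, chromosome 13, 52967209 to 52981073, minus strand, mm10), the gene of E4BP4, was read in 9 wild type members and in 23 members of the library labelled transgenic. Its level was 49.8 CPM (UMIs of the gene per 1000000 UMIs, both summed over the cells) in wild type members and 52.0 CPM in those of the library labelled transgenic (ratio 1.04, interval 0.509 to 2.27). In the zero-sum cells it stood at 91.7 and 78.8 CPM. Nfil3 RNA was therefore not higher in the library labelled transgenic in either group of cells, and the genotype is written as a label throughout. Whether these reads include the transcript of the transgene is not given in the sources used here.

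The wild type library held 9855 barcodes and 69346746 UMIs in its deposited count table, the library labelled transgenic 10143 barcodes and 58884332 UMIs, and 6466 and 7026 of these barcodes had a deposited cluster. Members carried 240948 UMIs in the wild type library and 499719 in the library labelled transgenic. A median member held 2818 UMIs in the wild type library and 2724 in the other, close to but under the 3209 and 3180 UMIs of a median zero-sum cell, so depth did not favour the members. The libraries shared 67 barcodes among the deposited cells, none of them in cluster 1. Beside the macrophage list, which summed to 24250 CPM in wild type members and 22679 CPM in the others, the members held RNA of other lineages: neutrophil markers summed to 643 and 124 CPM, T or innate lymphoid markers to 125 and 362 CPM, B cell markers to 1353 and 1121 CPM, plasma cell markers to 1884 and 3038 CPM and epithelial markers to 685 and 572 CPM. Zero-sum cells held such RNA too, with neutrophil markers at 470 CPM in the wild type library and 80.2 CPM in the other. In the same order, T or innate lymphoid markers stood at 258 and 551 CPM and B cell markers at 769 and 787 CPM. Plasma cell markers stood at 1687 and 2368 CPM and epithelial markers at 609 and 432 CPM. At least 2 neutrophil marker UMIs were present in 46.2% of wild type members and in 4.71% of members of the library labelled transgenic. In zero-sum cells this share was 38.0% and 2.89%.

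The share of members was 11.7% of cluster 1 in the wild type library (9.40% to 14.4%) and 15.4% in the library labelled transgenic (13.3% to 17.6%). The ratio of these shares was 1.31 with an interval of 0.995 to 1.73, which includes 1. When cells were thinned to 1000 UMIs the ratio was 0.954, so the direction turned. Shallower cells were left out of that ratio, among them 5 and 13 members and 52 and 51 zero-sum cells of the 2 libraries. As a share of all deposited cells, members made up 1.21% and 2.42% (ratio 2.01, interval 1.52 to 2.66), with cluster 1 itself holding 664 and 1106 cells. Outside cluster 1 a sum of 2 or more was rare: it was reached by 6 of 5802 cells (0.103%) in the wild type library and by 27 of 5920 (0.456%) in the other.

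**Figure D1:**
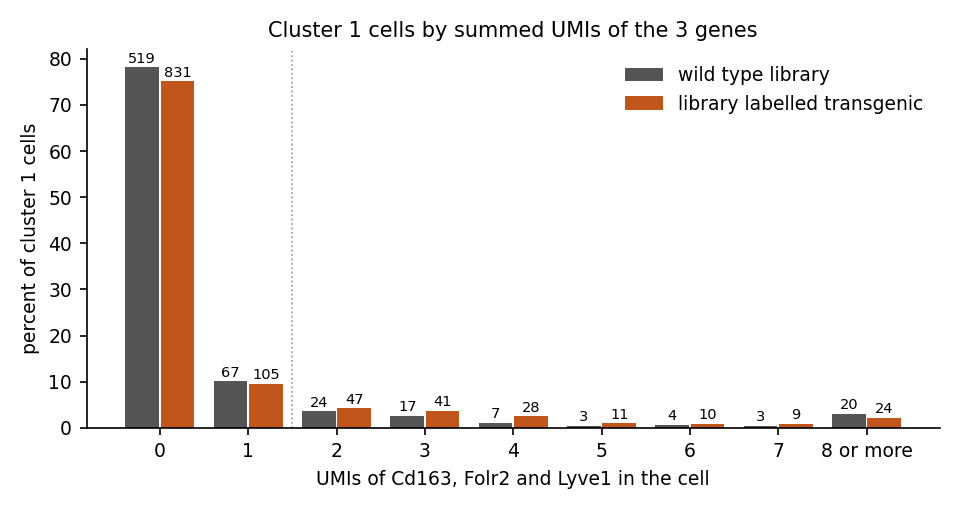
Cluster 1 cells by their summed UMIs of Cd163, Folr2 and Lyve1 (x axis), as a percent of the cluster 1 cells of each library (y axis), with the number of cells above each bar; the dotted line is the threshold of the rule. Most cells have a sum of 0, and 8 or more is reached by 20 cells of the wild type library and 24 of the other.

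The rule cuts a range of sums, so a member is defined by the threshold. At the threshold, 24 and 47 cells had a sum of 2, while just outside it 67 and 105 cells had a sum of 1. The median sum in members was 3 in both libraries, and the highest was 32 in the wild type library and 20 in the other. Cbr2, which encodes a carbonyl reductase and was not used by the rule, stood at 232 and 111 CPM just outside the threshold and at 444 and 344 CPM just inside it (wild type value first, here and in all pairs below). Pf4, the platelet factor 4 chemokine, stood at 2638 and 2936 CPM just outside and at 2596 and 3486 CPM just inside.

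The genes of the rule are Cd163 (ENSMUSG00000008845, chromosome 6, 124304656 to 124330527, plus strand), Folr2 (ENSMUSG00000032725, chromosome 7, 101839988 to 101857194, minus strand) and Lyve1 (ENSMUSG00000030787, chromosome 7, 110850607 to 110863239, minus strand), in mm10. Folr2 was read in most members, 76.9% and 77.1% of them, Cd163 in 59.0% and 62.9%, and Lyve1 in 55.1% and 47.6%. All 3 were read together in 21.8% and 23.5% of members, and 16 and 37 members entered on Folr2 alone. As a measure of background, the cells of the deposited cluster 0, of which 98.9% and 99.2% carry the B cell gene Cd79a, had a Folr2 UMI in 0.208% and 0.581% of cells, a Cd163 UMI in 0.0415% and 0.268% and a Lyve1 UMI in 0.290% and 0.358%, at median depths of 2445 and 2235 UMIs. Between the libraries, Folr2 stood in members at 573 and 638 CPM (ratio 1.11, 0.910 to 1.37), Cd163 at 569 and 482 CPM (0.848, 0.685 to 1.05) and Lyve1 at 668 and 446 CPM (0.668, 0.543 to 0.823).

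The markers given for these cells beside the rule's own were C1qa, a subunit of complement C1q that most tissue macrophages make, and Pf4. C1qa was read in 96.2% and 92.9% of members and in 84.4% and 88.7% of zero-sum cells, and its level differed little, at 3445 and 2467 CPM against 3002 and 2714 CPM. Pf4 was read in 92.3% and 97.1% of members and stood at 3839 and 4683 CPM against 883 and 1087 CPM (ratios 4.35 and 4.31). The deposited finer clustering put 98.7% and 95.9% of members in 1 cluster, together with 86.1% and 88.3% of the zero-sum cells, so the members lay inside the main macrophage cluster of the authors. Lyve1 also marks lymphatic endothelium. Of 12 markers of blood or lymphatic endothelium, 3 and 5 were read in members, with 5 and 13 UMIs in all (20.8 and 26.0 CPM, against 25.6 and 27.7 CPM in zero-sum cells). Cdh5, Flt4, Ccl21a, Cldn5, Plvap and Esam were at 0 in both libraries, while the lymphatic genes Prox1 and Mmrn1 were read in the library labelled transgenic. Of 10 fibroblast markers 4 and 6 were read, at 33.2 and 30.0 CPM against 50.6 and 30.8 CPM, with Col1a1 and Pdgfra at 0 in both. The markers of serosal or peritoneal macrophages summed to 108 and 104 CPM, below the 279 and 164 CPM of the zero-sum cells.

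Against the zero-sum cells, members held more RNA of a known set of resident macrophage genes and less of the main class II genes. This contrast is the one the rule made, so it is a description with no test: 637 of 7868 genes with at least 50 UMIs were higher in both libraries (8.1%) and 375 were lower in both (4.77%), or 482 and 486 genes when levels were scaled by the median of ratios, which lowers the log2 ratio by about the median of all genes. The 15 genes ranked highest, by the interval bound nearest to 1, were Fcna, Cbr2, Ednrb, F13a1, Fgfr1, Cd209f, Cd36, Pmp22, Gas6, Retnla, Ltc4s, C4b, Alox5, Serpinb6a and Stard8.

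Lectins and opsonins were among them. Fcna encodes ficolin A, a secreted lectin that starts the lectin pathway of complement. It stood at 207 and 240 CPM in members against 5.0 and 5.6 CPM in zero-sum cells (ratio 41.5, interval 20.2 to 96.0) in the wild type library and 42.8 (25.3 to 77.3) in the other. C4b, the complement component cleaved next in that pathway, stood at 187 and 78.0 CPM against 7.78 and 9.81 CPM. Cd209f, a C-type lectin of the DC-SIGN family, stood at 62.3 and 146 CPM against 2.22 and 0.701 CPM, and was read in only 6 and 22 members. C4b and Cd209f have close paralogs, so part of their reads may be assigned to or from those.

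Of 24 genes for scavenging and the clearing of dying cells, 10 were higher and 3 lower in both libraries, where 8.96% and 4.42% of all genes were, with a median log2 ratio of -0.11 and 0.70. Mrc1, the mannose receptor CD206, stood at 1768 and 1101 CPM against 407 and 289 CPM (ratios 4.35 and 3.81). Gas6, the protein that bridges phosphatidylserine on dying cells to the receptors Axl and Mertk, stood at 457 and 450 CPM against 61.1 and 58.5 CPM (ratios 7.47 and 7.69). Axl itself was lower in members, at 24.9 and 86.1 CPM against 178 and 224 CPM. Cd36, a scavenger receptor for oxidised lipid and fatty acids, stood at 129 and 428 CPM against 8.89 and 38.5 CPM, and Stab1, a scavenger receptor of sinusoidal and resident macrophages, at 324 and 364 CPM against 149 and 123 CPM.

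Receptors, enzymes and a clotting factor made up the rest of the leading genes. Ednrb, the endothelin B receptor, stood at 228 and 226 CPM against 10.6 and 4.91 CPM, and Fgfr1, a fibroblast growth factor receptor, at 66.4 and 82.1 CPM against 2.22 and 2.80 CPM. F13a1, the A subunit of clotting factor XIII, stood at 1116 and 807 CPM against 90.6 and 57.8 CPM (ratios 12.3 and 13.9). Ltc4s and Alox5, enzymes of leukotriene synthesis, were 8.01 and 6.00 times and 17.4 and 7.82 times the level of zero-sum cells. Retnla, the resistin-like molecule of alternatively activated macrophages, was 11.5 and 5.74 times as high, but it was read in 6 and 32 members and 5 cells held 98.8% and 63.9% of its UMIs.

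The 15 genes ranked lowest were Zmynd15, Mmp14, Olfml3, Acp5, Cd72, Rgs1, Sirpb1a, F11r, Abi3, Gngt2, Itgax, Spint1, H2-M2, Tlr12 and Tgfbr1. Itgax, the integrin CD11c of antigen-presenting cells, stood at 8.30 and 48.0 CPM in members against 171 and 155 CPM (ratios 0.0487 and 0.311). Acp5, the tartrate-resistant acid phosphatase, stood at 62.3 and 112 CPM against 432 and 353 CPM, and Mmp14, a membrane-bound matrix metalloproteinase, at 29.1 and 38.0 CPM against 183 and 152 CPM. Rgs1, which damps signals of chemokine receptors, stood at 104 and 444 CPM against 1017 and 1197 CPM. Olfml3, H2-M2 and Tlr12 had no UMI in wild type members, and against a floor of 3 counts Tlr12, a toll-like receptor, was at least 5.89-fold lower there.

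**Figure D2:**
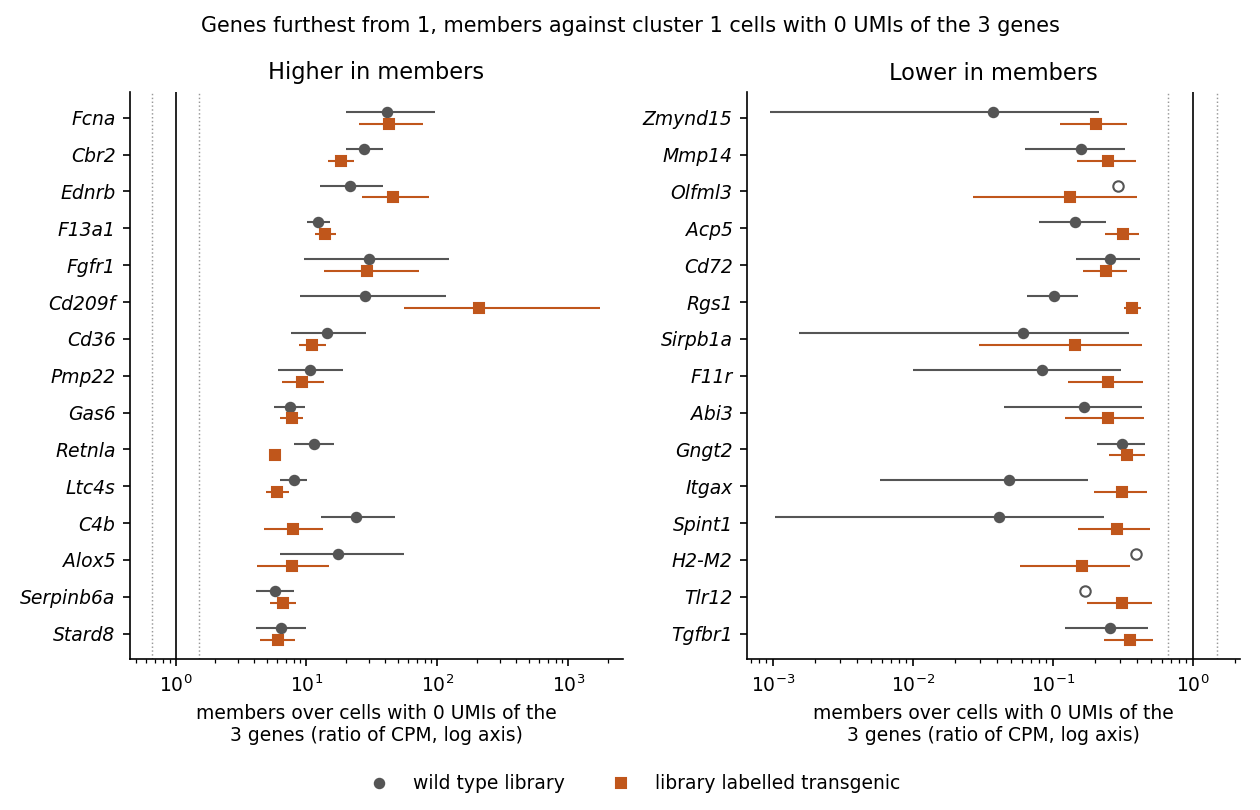
Ratio of summed CPM, members over cluster 1 cells with 0 UMIs of the 3 genes (x axis, log scale), for the 15 highest and 15 lowest genes in each library, with 95% counting intervals; open circles are limits against a floor of 3 counts and dotted lines mark 1.5-fold. Every gene lies on the same side of 1 in both libraries, which the ranking required, from 208 for Cd209f to 0.0377 for Zmynd15.

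The list of the Folr2/Lyve1 macrophage programme held 37 genes beside the rule's own, of which 32 had at least 20 UMIs. In both libraries 30 of these were higher and 0 were lower, where 8.96% and 4.42% of all 9999 genes with 20 UMIs were higher and lower. The list names genes of macrophages with Folr2 and Lyve1, which the rule used, and was chosen with earlier results of these data known. The count is therefore a description and not a test. The median log2 ratio of the list was 2.04 and 1.90, against 0.05 and 0.12 over all genes. Selenop, the selenium transport protein, stood at 2362 and 2581 CPM against 1251 and 1237 CPM. Igf1, a growth factor, stood at 120 and 270 CPM against 31.1 and 45.9 CPM, and Maf, a transcription factor of resident macrophages, at 784 and 958 CPM against 289 and 335 CPM. Timd4, a phosphatidylserine receptor of long-lived macrophages, was read in only 7 and 4 members.

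Promoters of Folr2 and of Fcna are shown because Maf, whose half-site is TGCTGA, was higher in members, as was Fcna. Folr2 is a gene of the rule, so its higher level in members was set by the choice of cells. Each is 250 bases before to 50 bases after a RefSeq start (assembly GRCm38.p6, the build that mm10 names), and capitals mark TGCTGA.
Folr2, downstream start, chr7:101845282-101845581, minus strand: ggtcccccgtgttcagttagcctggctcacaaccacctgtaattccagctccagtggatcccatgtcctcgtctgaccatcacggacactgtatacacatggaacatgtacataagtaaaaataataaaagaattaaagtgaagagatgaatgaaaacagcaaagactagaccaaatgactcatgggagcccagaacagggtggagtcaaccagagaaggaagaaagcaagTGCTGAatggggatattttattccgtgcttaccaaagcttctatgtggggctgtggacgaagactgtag
Fcna, chr2:25627925-25628224, minus strand: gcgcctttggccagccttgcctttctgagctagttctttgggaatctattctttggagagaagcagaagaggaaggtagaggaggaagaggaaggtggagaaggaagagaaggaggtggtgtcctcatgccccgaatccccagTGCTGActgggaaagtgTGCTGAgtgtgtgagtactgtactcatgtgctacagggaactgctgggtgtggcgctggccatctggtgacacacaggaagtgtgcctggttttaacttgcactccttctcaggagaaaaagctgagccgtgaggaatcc
The Folr2 match lies 19 bases upstream of the start, and the Fcna matches lie 107 and 90 bases upstream. The upstream Folr2 start, whose promoter is not shown, has a match 220 bases upstream. TGCTGA on either strand is common: 19.5% of the 32851 promoters of the table hold it, as do 6 of 18 promoters of the 15 genes ranked highest, of which 13 are in the table. The 15 genes ranked lowest, of which 11 are in the table, hold it in 4 of 14 promoters, a like share. A match describes these letters and is not evidence of binding.

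The main class II genes were lower in members. Of 16 genes of antigen presentation, 0 were higher and 6 lower in both libraries (8.96% and 4.42% of all genes), with a median log2 ratio of -0.57 and -0.64. H2-Aa, an alpha chain of class II, stood at 4362 and 6698 CPM against 9769 and 10940 CPM, and H2-Ab1, its beta chain, at 2557 and 4541 CPM against 6237 and 7695 CPM. Cd74, the invariant chain, was at 0.472 and 0.560 times the level of zero-sum cells, and H2-Eb1 and the cathepsin Ctss were lower as well. The list of mature gut macrophage genes had 2 of 23 higher and 8 lower in both libraries, where 8.96% and 4.42% of all genes were. Il10, the cytokine that restrains gut inflammation, was among the higher ones at 133 and 96.1 CPM against 18.9 and 51.5 CPM, but 5 cells held 68.8% and 43.8% of its UMIs and the ratio of the library labelled transgenic turned to 0.945 in thinned cells.

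Il1b, the inflammatory cytokine, stood at 1930 and 993 CPM in members against 4031 and 2928 CPM (ratios 0.479 and 0.339). In the library labelled transgenic this member level was under 0.1 of that in another deposited cluster, a level that RNA free in the droplets can give. Arg1, the arginase of repair macrophages, had 13 and 2 UMIs and Il6 had 0 and 2 UMIs, so neither could be judged at this depth.

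**Figure D3:**
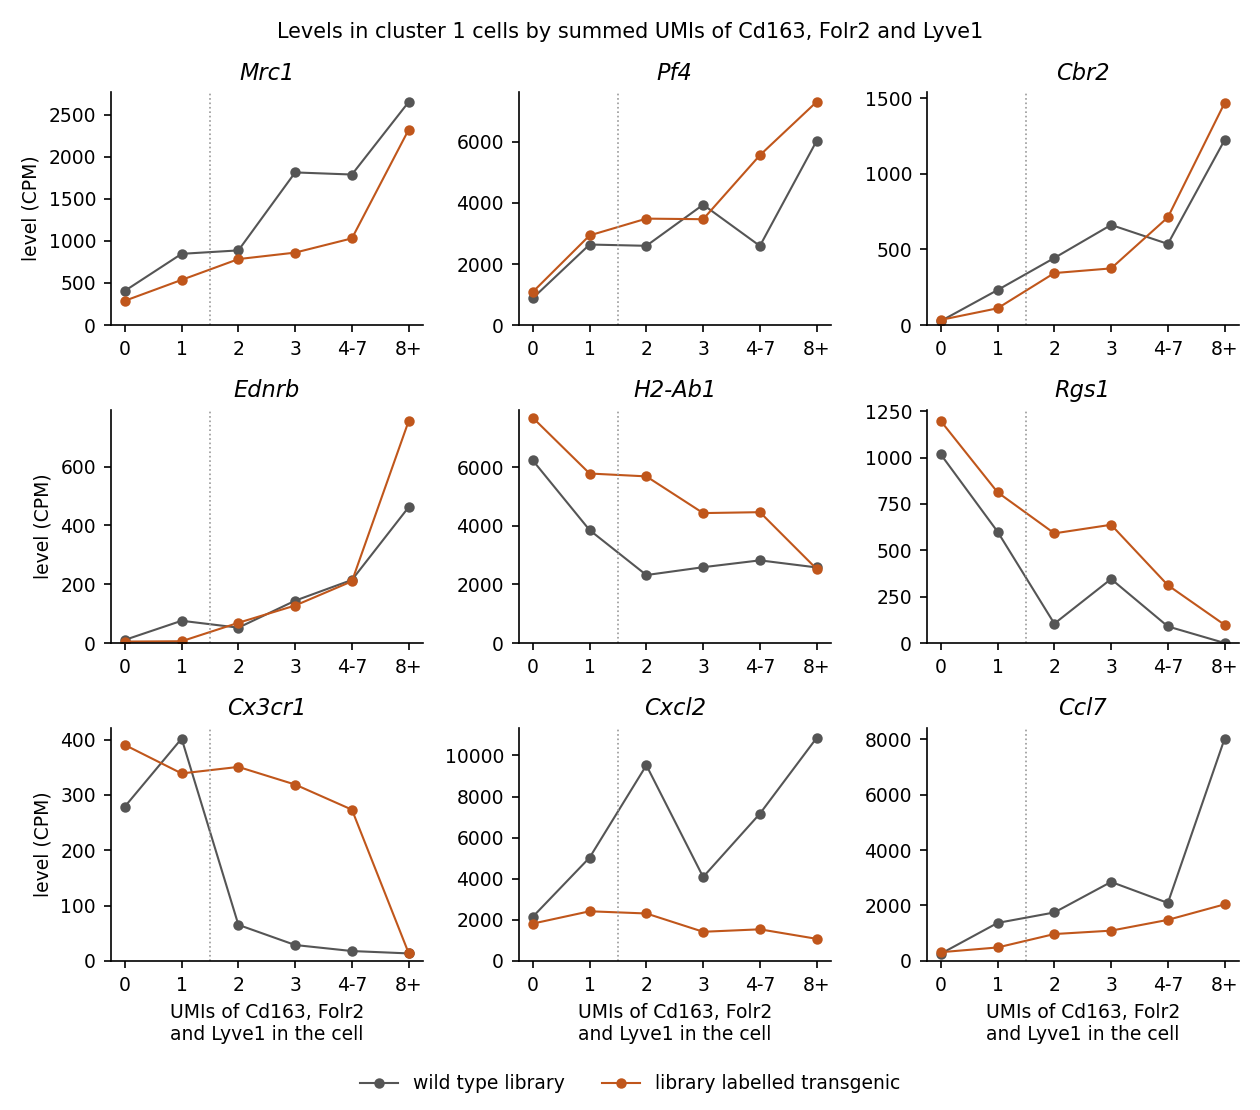
Level of 9 genes (y axis, CPM of counts summed over cells) in cluster 1 cells by their summed UMIs of Cd163, Folr2 and Lyve1 (x axis), for each library; the dotted line is the threshold. Mrc1, Cbr2 and Ednrb are highest in cells with 8 or more UMIs, while Cxcl2 reaches 10857 CPM there in the wild type library and 1076 CPM in the other.

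The members differed among themselves along the sum. Mrc1 stood at 887 and 784 CPM in cells with a sum of 2 and at 2650 and 2321 CPM in cells with 8 or more. Ednrb went from 52.2 and 68.8 CPM to 462 and 755 CPM between the same cells, and Fcna from 39.1 and 75.6 CPM to 489 and 825 CPM. C1qa moved less, from 3326 and 2235 CPM to 4104 and 3425 CPM. The fractalkine receptor Cx3cr1, a receptor of gut macrophages that descend from monocytes, was nearly absent at 8 or more UMIs, with 1 UMI over the 20 cells of the wild type library and 1 UMI over the 24 of the other. A median cell with a sum of 2 or 3 held 2247 and 2760 UMIs, and one with 8 or more held 3772 and 2902 UMIs.

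Members in which Lyve1 was read, 43 and 81 cells, stood apart from the 35 and 89 members without a Lyve1 UMI. Ednrb was 7.16 (3.07 to 20.5) and 9.03 (5.29 to 16.4) times as high in them, and Fcna 13.7 (4.42 to 69.0) and 4.89 (3.17 to 7.76) times, the wild type Fcna value resting on 3 UMIs in members without Lyve1. By contrast, H2-Aa was at 0.507 and 0.813 times and Cd74 at 0.590 and 0.818 times the level of the other members. Retnla, though in few cells, was 5.98 and 5.84 times as high. Splitting by Cd163 gave 1.80 and 1.86 times for the monocyte chemokine Ccl2, and splitting by Folr2 gave 2.00 and 1.14 times for Pf4. These splits follow a UMI of genes that the rule used, and a cell without one may still express the gene.

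The libraries were then compared within members. Chemokines and inflammatory genes were lower in members of the library labelled transgenic, and Cx3cr1, Rgs1, H2-Ab1, H2-Aa and H2-Eb1 were higher. Higher and lower again mean 1.5-fold. The ratio in the zero-sum cells of the same libraries is given beside each, and the difference between the ratios was not tested. Of 2147 genes with at least 50 UMIs in members, 198 were higher (9.22%) and 225 lower (10.5%) in the library labelled transgenic. In zero-sum cells 6.18% of 7367 genes were higher and 6.71% lower. Fewer member UMIs leave wider counting error, so these shares are not a measure of which cells differed more.

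**Figure D4:**
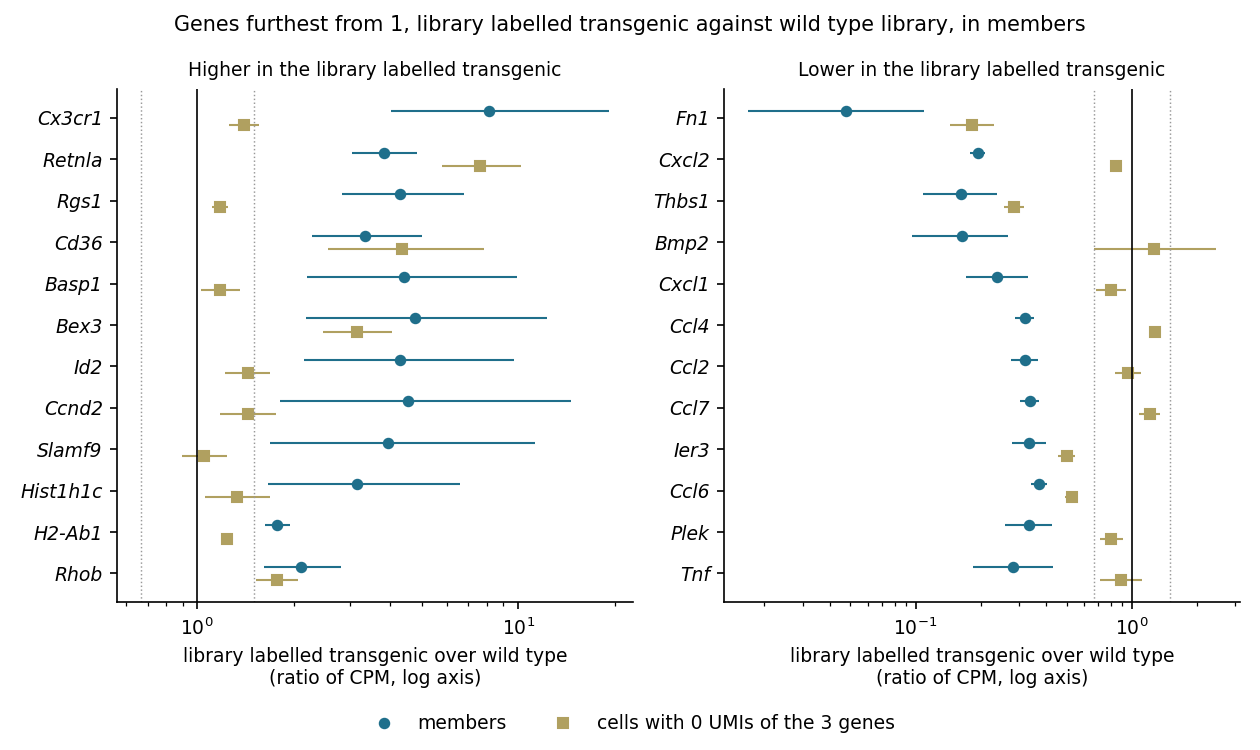
Ratio of summed CPM, library labelled transgenic over wild type library (x axis, log scale), in members and in cluster 1 cells with 0 UMIs of the 3 genes, with 95% counting intervals, for the 12 highest and 12 lowest genes in members; dotted lines mark 1.5-fold. Cx3cr1 is at 8.14 in members and 1.40 in the other cells, and Ccl7 at 0.337 and 1.21.

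Fn1 ranked first among the 12 lowest genes, and 6 of them were chemokines: Cxcl2, Cxcl1, Ccl4, Ccl2, Ccl7 and Ccl6. Cxcl2, which attracts neutrophils through CXCR2, stood at 8599 CPM in wild type members and 1667 CPM in those of the library labelled transgenic (ratio 0.194, interval 0.179 to 0.210), and was read in 58 of 78 and 81 of 170 members. In zero-sum cells it stood at 2151 and 1818 CPM, a ratio of 0.845. Cxcl1, its relative, stood at 469 and 112 CPM in members (0.239, 0.170 to 0.332), with 5 wild type cells holding 76.1% of its UMIs. By sum, the Cxcl1 ratio was 0.22 at 2 or 3 UMIs and 0.110 at 8 or more. At 4 to 7 UMIs the direction was the other way, with 0 Cxcl1 UMIs in 17 wild type members and 20 UMIs, from 3 cells, in 58 of the other library. The monocyte attractants Ccl7 and Ccl2 stood at 3901 and 1315 CPM (0.337, 0.305 to 0.373) and at 1893 and 604 CPM (0.319, 0.275 to 0.370), where zero-sum cells gave 1.21 and 0.964. Ccl4, a chemokine for monocytes and T cells, stood at 3797 and 1213 CPM in members and at 1603 and 2045 CPM in zero-sum cells. In the list of 22 chemokines, 16 had at least 20 UMIs in members, of which 3 were higher and 10 lower, where 16.3% and 13.3% of all 4857 such genes were. Their median log2 ratio was -0.86 in members and 0.23 in zero-sum cells, where all genes had 0.00 and -0.05.

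Set against the zero-sum cells of its own library, the chemokine list read differently in each library. In the wild type library 15 of 20 genes with enough UMIs were higher in members and 1 lower (23.3% and 17% of all genes), with a median log2 ratio of 1.47, and in the library labelled transgenic 8 were higher and 5 lower (20.9% and 13.1%), with a median of -0.07. The chemokines higher in both were Ccl2, Ccl6, Ccl7, Ccl8, Ccl9, Ccl24, Cxcl12 and Pf4. Ccl8, another monocyte attractant, stood at 2038 and 1789 CPM in members against 361 and 599 CPM.

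Because neutrophil markers moved the same way, at 643 and 124 CPM in members, the comparison was repeated in the 24 and 140 members without a UMI of the neutrophil list. Cxcl2 then stood at 9838 and 1789 CPM (ratio 0.182, interval 0.163 to 0.203), and Ccl7 at 3365 and 1435 CPM, a ratio of 0.426. Ccl4 came closer to 1, at 0.653. Ccl3, Ccl12 and Il1b, lower over all members, stood at 1.14 (0.785 to 1.70), 0.970 (0.611 to 1.61) and 0.863 (0.660 to 1.14). Their intervals include 1. Cxcl1, Ccl2, Ccl6 and Tnf stood at 0.178, 0.468, 0.325 and 0.346, with intervals under 1. A stricter filter, under 2 UMIs of all other lineages apart from plasma cell and immunoglobulin genes, left 11 and 39 members, in which Ccl2 turned to 1.49 and Bmp2 to 1.66 and Ccl4 and Ccl7 came to 0.921 and 0.809, while Cxcl2 stayed below 1 under all alternatives run, between 0.0991 and 0.322. In members with 8 or more UMIs of the rule's genes, Cxcl2 stood at 10857 and 1076 CPM (0.0991, 0.0774 to 0.125) and Ccl7 at 8017 and 2041 CPM (0.255, 0.211 to 0.306).

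Promoters of Cxcl1 and Cxcl2 are shown because these neighbouring genes on chromosome 5 were both lower over all members of the library labelled transgenic. At a sum of 4 to 7 only Cxcl2 was lower. Capitals mark the form of the NF-kB site searched on either strand, GGG and TTTCC with any pair of bases between them.
Cxcl1, chr5:90890995-90891294, plus strand: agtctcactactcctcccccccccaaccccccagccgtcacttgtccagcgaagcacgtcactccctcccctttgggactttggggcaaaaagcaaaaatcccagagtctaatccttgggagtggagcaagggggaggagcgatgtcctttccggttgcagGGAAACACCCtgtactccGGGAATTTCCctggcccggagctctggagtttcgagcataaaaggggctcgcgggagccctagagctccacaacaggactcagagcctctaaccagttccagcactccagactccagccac
Cxcl2, chr5:90903649-90903948, plus strand: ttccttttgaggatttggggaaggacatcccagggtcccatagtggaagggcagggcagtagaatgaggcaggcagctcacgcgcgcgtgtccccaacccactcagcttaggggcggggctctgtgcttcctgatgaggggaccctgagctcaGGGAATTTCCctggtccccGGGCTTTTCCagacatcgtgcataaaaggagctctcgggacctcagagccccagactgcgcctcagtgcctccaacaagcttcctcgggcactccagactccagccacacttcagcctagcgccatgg
The matches lie 89 and 71 bases upstream of the Cxcl1 start and 97 and 78 bases upstream of the Cxcl2 start. The motif is in 1.63% of all promoters of the table and in 2 of 6 promoters of the 12 genes ranked lowest in the library labelled transgenic; the other 6 of those genes are not in the table. The E4BP4 site TTACGTAA, in 0.119% of all promoters, and its variant TTATGTAA, in 0.938%, matched none of the promoters of the ranked genes. These matches are descriptions of sequence only.

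Some matrix and growth factor genes were also among the 12 lowest, although the list of repair and growth as a whole was not lower: of 16 of its genes with 20 UMIs in members, 5 were higher and 4 lower (16.3% and 13.3% of all genes), with a median log2 ratio of 0.23. Igf1, one of the 5, stood at 120 and 270 CPM in members. Fn1, fibronectin, stood at 253 and 12.0 CPM in members (0.0474, 0.0168 to 0.109) and at 189 and 34.7 CPM in zero-sum cells, and Thbs1, thrombospondin, at 444 and 72.0 CPM in members and 652 and 186 CPM in zero-sum cells. Bmp2, a factor that muscle layer macrophages are known to give to enteric neurons, stood at 270 and 44.0 CPM in members and at 8.89 and 11.2 CPM in zero-sum cells. A few cells carried much of this RNA: 5 wild type members held 65.6% of Fn1, 64.5% of Thbs1 and 70.8% of Bmp2 UMIs. Tnf, Ier3, Ccl6 and Plek completed the 12 lowest genes, Tnf at 262 and 74.0 CPM. Of 7 inflammatory mediators with 20 UMIs, 0 were higher and 5 lower (16.3% and 13.3% of all genes), with a median log2 ratio of -0.96 in members and -0.20 in zero-sum cells. The list of monocyte-derived genes gave -1.05 in members and -0.96 in zero-sum cells.

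Cx3cr1 led the higher genes. It was read in 6 of 78 wild type members and 61 of 170 members of the library labelled transgenic, at 33.2 and 270 CPM (ratio 8.14, interval 4.01 to 19.2). In zero-sum cells it stood at 279 and 390 CPM, a ratio of 1.40, so the low level was that of wild type members. The difference was seen at a sum of 2 or 3 (53.9 and 336 CPM) and at 4 to 7 (17.9 CPM, from 1 UMI, and 273 CPM), and at 8 or more both libraries had 1 UMI. Just outside the threshold, cells with a sum of 1 stood at 402 and 339 CPM. The Cx3cr1 ratio was 1.45 when those cells were taken in, 1.84 when barcodes over the gene limit of the authors were added, 2.64 in thinned cells and 2.65 under the filter for other lineages, so its size rests on the rule and on 8 UMIs in wild type members. Rgs1 behaved alike in part, at 104 and 444 CPM in members (4.28, 2.83 to 6.76) and 1.18 in zero-sum cells, but the ratio turned to 0.983 when the barcodes over the gene limit were added.

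H2-Ab1 was 1.78 times as high in members of the library labelled transgenic (1.62 to 1.95) and 1.23 times in zero-sum cells. H2-Aa and H2-Eb1 were 1.54 and 1.51 times as high in members. Of 15 antigen presentation genes with 20 UMIs in members, 4 were higher and 2 lower (16.3% and 13.3% of all genes), with a median log2 ratio of 0.06, so the list as a whole stood near all genes. By sum, the H2-Ab1 ratio was 2.12 at 2 or 3 UMIs, 1.58 at 4 to 7 and 0.980 (0.795 to 1.21) at 8 or more. At 8 or more Cd74 was lower in the library labelled transgenic, at 0.559 (0.506 to 0.617). H2-Aa stood there at 0.767 (0.645 to 0.911), under 1 but short of 1.5-fold. Retnla and Cd36 were higher in both groups of cells: Retnla stood at 357 and 1359 CPM in members and 31.1 and 237 CPM in zero-sum cells, and Cd36 at 129 and 428 CPM and at 8.89 and 38.5 CPM. Few members carried Retnla. At 2 or 3, 4 to 7 and 8 or more UMIs it was read in 2 wild type cells each. In the other library it was read in 13, 11 and 8 cells, and a few cells held most of its UMIs in each library. Basp1, Bex3, Id2, Ccnd2, Slamf9, Hist1h1c and Rhob completed the 12 highest genes. Of these, Id2, an inhibitor of helix-loop-helix transcription factors, stood at 37.4 and 160 CPM, and the cyclin Ccnd2 at 20.7 and 94.1 CPM. In the 24 and 140 members without a neutrophil marker UMI, the interval of each of these remaining genes included 1. Id2 stood there at 1.69 (0.74 to 4.74) and Ccnd2 at 3.23 (0.845 to 27.5), from 6 and 2 wild type UMIs. The intervals of Cx3cr1, Retnla, Rgs1, Cd36 and H2-Ab1 stayed above 1 there. Cx3cr1 rested on 1 wild type UMI (2.79 to 632), Retnla on 4 UMIs in 2 wild type cells and Rgs1 on 8 wild type UMIs. The Cd36 interval began at 1.008, and H2-Ab1 had 123 wild type UMIs. The T or innate lymphoid markers were higher in members of the library labelled transgenic as well, at 125 and 362 CPM, beside 258 and 551 CPM in zero-sum cells. The part of these markers in the differences was not tested.

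Of the leading member genes, some differed between the libraries over all members and others did not beyond counting error. Cd36 (3.33), Retnla (3.81) and Cd209f (2.35, 1.33 to 4.41) were higher in members of the library labelled transgenic, and C4b was lower (0.418, 0.265 to 0.656). Over all members, the ratio of the library labelled transgenic to the wild type library was 1.16 for Fcna, 0.855 for Cbr2, 0.991 for Ednrb, 0.986 for Gas6 and 1.17 for Pmp22, all with intervals that include 1. In the 20 and 24 members with 8 or more UMIs, Fcna stood at 1.69 (1.095 to 2.63) and Ednrb at 1.63 (1.045 to 2.59). Gas6 stood there at 1.63 (1.09 to 2.44) and Cbr2 at 1.20 (0.897 to 1.61). At 4 to 7 UMIs the intervals of Fcna, Ednrb, Gas6 and Cbr2 included 1. At 2 or 3 UMIs Cbr2 was at 0.70 (0.50 to 0.99), and Fcna at 3.29 (1.17 to 12.8) from 4 wild type UMIs. Mrc1 was lower at 0.622 (0.547 to 0.708), and F13a1 stood at 0.722 (0.618 to 0.846), under 1 but short of 1.5-fold. The zero-sum ratios were 0.710 for Mrc1 and 0.638 for F13a1. By sum, F13a1 stood at 0.443 at 2 or 3 UMIs, 0.818 at 4 to 7 and 1.499 (1.16 to 1.94) at 8 or more, so its direction turned. Mrc1 stood at 0.697, 0.576 and 0.876 (0.708 to 1.083) in the same order. Of 31 genes of the Folr2/Lyve1 programme with 20 UMIs in members, 4 were higher and 4 lower, near the 16.3% and 13.3% of all genes, with a median log2 ratio of 0.17 in members and -0.03 in zero-sum cells.

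**Figure D5:**
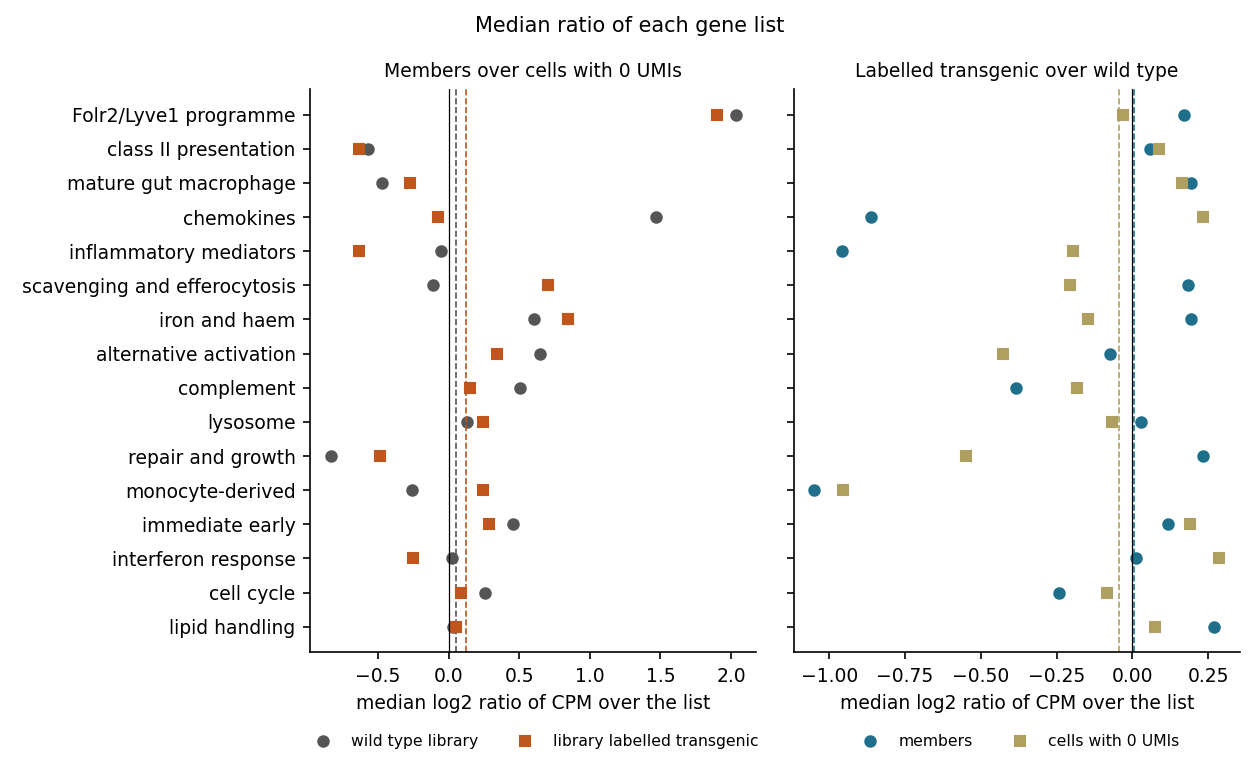
Median log2 ratio of CPM over each gene list (x axis), for members over cells with 0 UMIs of the 3 genes in each library (left) and for the library labelled transgenic over the wild type library in members and in those cells (right); dashed lines are the medians of all genes. The Folr2/Lyve1 programme stands at 2.04 and 1.90 on the left, and chemokines at -0.86 in members and 0.23 in the other cells on the right.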

How the data were processed

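Colon leukocytes of 1 wild type and 1 E4BP4 transgenic library were analysed from the deposited tables of UMI counts per gene (32285 genes, of which 38 symbols occur more than once and were told apart by identifier) and the deposited cell metadata, which give the authors' clusters and the percent of mitochondrial counts. Cell Ranger 5.0.0 and Seurat 4.0 are the tools, and mm10 the build, given in the submitters' processing notes; filters beyond what the metadata show are not given in the sources used here. Members and lists were chosen with earlier results of these data known. Counts were summed over cells and divided by the cells' total (CPM). Ratios have exact conditional binomial 95% intervals and shares exact Clopper-Pearson ones. Zero counts were set against a floor of 3 counts. The calculation was tested on simulated data.

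Named genes needed 50 UMIs and a 1.5-fold ratio (in both libraries for members against zero-sum cells, where 15 were taken each way, and 12 each way between libraries), ranked by the interval bound nearest to 1. Immunoglobulin, T cell receptor, haemoglobin, mitochondrial, ribosomal and predicted genes were left out, as were genes whose level in the higher group was under 0.1 of that in another cluster. Cd163, Folr2, Lyve1, C1qa, Pf4, Nfil3, Il10, Mrc1, Il1b, Tnf, Arg1 and Il6 were always given. From each list the 2 highest and 2 lowest could be named; other list genes, the promoters and the cuts of the sum were chosen after their values were seen. No doublet call is in the sources used here, and none was made. In 1 alternative a fixed share of barcodes with the highest Scrublet doublet scores in each library was removed. Promoters are from the RefSeq table of GRCm38.p6. Python 3.11.15, numpy 2.4.6, scipy 1.17.1, pandas 2.3.3, scanpy 1.11.5 and matplotlib 3.10.9 were used.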

Additional observations from a re-analysis of the deposited data

Results flagged for a closer look

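Ccl4 moved in opposite directions in the libraries. It was 2.37 times as high in members as in zero-sum cells of the wild type library and 0.593 times in the library labelled transgenic. Both intervals exclude 1, but with 1 library per genotype the difference was not tested. In members 5 cells held 52.1% of Ccl4 UMIs in the wild type library and 33.7% in the other. Of 7868 genes, 18 had ratios on opposite sides of 1 with both intervals clear of 1.

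Barcodes of the count tables that have no deposited cluster also held a sum of 2 or more UMIs of Cd163, Folr2 and Lyve1, in 1.56% of 3389 barcodes of the wild type library (1.17% to 2.04%) and in 2.50% of 3117 barcodes of the library labelled transgenic (1.98% to 3.11%). Cells outside cluster 1 reached such a sum in 0.103% and 0.456%. Of the 53 and 78 barcodes without a deposited cluster that reached it, 37 and 40 were only over the authors' gene limit and had profiles nearest to cluster 1. All barcodes so placed held a median of 11033 and 9334 UMIs, against 2818 and 2724 in members. These shares are therefore not at like depth.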

How the results depend on the processing

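No paired analysis was possible because each genotype has 1 library. Depth limits genes with few UMIs, and members of each library were too few for any check across animals. Across 21 alternatives, 1414 of 1850 values of named genes moved by less than their counting interval, 426 moved by more and 10 changed sides of 1; of 100 values past 1.5-fold, 69 stayed past it under every alternative. Filters for other lineages and for no neutrophil UMI, the rule of at least 2 genes and the rule of 8 or more UMIs were added after seeing the data; the planned filter on all lineage lists left no wild type member and gave no value.

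The ratio of member shares, 1.31, was 0.954 in cells thinned to 1000 UMIs, 2.01 over all deposited cells, 0.883 under the lineage filter and 0.720 at 8 or more UMIs. The 637 genes higher and 375 lower in members were 206 and 136 at 2-fold and 200 and 159 under the lineage filter, and 176 were lower without neutrophil UMIs. Scaling by median of ratios, which shifts log2 ratios by -0.07 and -0.13, gave 482 and 486. The 198 genes higher and 225 lower in the library labelled transgenic were 94 and 138 without Folr2 in the sum, 29 and 32 in thinned cells, 406 and 346 with barcodes over the gene limit, 794 and 646 at 20 UMIs, 66 and 90 at 100 UMIs, 51 and 53 at 2-fold, 50 and 32 under the lineage filter, 126 and 147 with at least 2 genes, and 47 and 50 at 8 or more UMIs. Fewer cells or genes enter most of these settings; otherwise the cause was not tested.

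Values that changed sides of 1 were Il10 over zero-sum cells in the library labelled transgenic (0.945, thinned) and Arg1 in the wild type library (1.26 in the largest finer cluster, 1.16 without neutrophil UMIs). Between libraries they were Rgs1 (0.983, barcodes over the gene limit), H2-Ab1 (0.980, 8 or more UMIs) and, under the lineage filter, Bex3 (0.796), Bmp2 (1.66), Ccl2 (1.49) and Il1b (1.47). Nfil3 over zero-sum cells in the library labelled transgenic was 1.01 under that filter.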

Other observations

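Iron and haem genes were higher in members more often than lower. Of 19 such genes with enough UMIs, 8 were higher and 1 lower than in zero-sum cells in both libraries, where 8.96% and 4.42% of all genes were. Hmox1, the enzyme that breaks down haem, stood at 166 and 242 CPM in members against 77.8 and 81.3 CPM, and Cp, the ferroxidase ceruloplasmin, at 112 and 74.0 CPM against 13.3 and 14 CPM. The metallothionein Mt2 stood at 104 and 98.1 CPM against 14.5 and 7.71 CPM. Slc40a1, the iron exporter ferroportin, had 7 and 18 UMIs in members.

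Among 29 of 35 listed genes of repair and growth that had enough UMIs, 6 were higher and 11 lower in members in both libraries, where 8.96% and 4.42% of all genes were. Pdgfc and Timp2, a growth factor and an inhibitor of matrix proteases, were 6.53 and 6.07 times and 3.46 and 2.84 times the level of zero-sum cells. Mmp12, the macrophage elastase, had no UMI in members of either library, against 71.7 and 14.7 CPM in zero-sum cells. The transcription factor Klf2 stood at 1033 and 1795 CPM in members against 362 and 667 CPM.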
